A study of Mus musculus with 13 samples.

Results

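Broad H3K4me3 regions marked in all 4 leukaemia cell lines of the series were examined. Overlapping H3K4me3 peaks of the 4 lists were merged, and a merged region was kept when it was 3000 bp or longer and held at least 1 peak of every line. This left 1692 of 25059 merged regions, and 9463 regions of any length had a peak of every line. Because the peaks themselves chose the regions, H3K4me3 widths are given as a description without a test. Binding of the fusion protein and H3K27me3 were not used in the choice.

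The lines were all of mouse and grew without added cytokine. Lines 748T and 106A (106A is titled M106A in the labels) came from NUP98-PHF23 pre-T LBL of different C57BL/6 mice. Line 961C came from a NUP98-PHF23 AML, an acute myeloid leukaemia, of another C57BL/6 mouse. Line 7298/2 came from an SCL-LMO1 pre-T LBL on a C57BL/6 and C3H hybrid background, served as the control without the fusion, and is called SCL-LMO1 here. Each line had 1 chromatin immunoprecipitation library per mark, so differences between lines have no replicate check and no test, and NUP98-PHF23 itself (NP23) was mapped in 961C alone, in a sample whose title also names V5, a peptide tag. Lineage, oncogene and library therefore cannot be told apart where one line differs from the rest, and in SCL-LMO1 the strain differs too. Which promoters drove the oncogenes was not given in the sources used here.

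H3K4me3 is deposited by the SET1 and MLL methyltransferase complexes at promoters of active genes, and unusually broad H3K4me3 domains are known to lie over genes that set a cell's identity. PHF23 carries a PHD finger, a fold that binds H3K4me3, and the fusion joins it to a part of the nuclear pore protein NUP98. H3K27me3 is the mark of Polycomb repression and is usually scarce where H3K4me3 is strong. Positions are on mm9. Genes and sequences under the regions were not analysed here, so regions are named by position and the lineage of the lines was not checked against marker genes.

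The deposited lists give no read totals, so depth is unknown and all intervals below cover counting error only. The 4 H3K4me3 lists held 16324 to 17696 peaks, with a median maximum pileup of 38 reads in 961C and of 76 to 97 reads in the other lines. In the broad regions the tallest peak of a line had a median percentile, among the peaks of its own list, of 80.1 in 961C and of 77.3 to 78.2 in the other lines. The broad regions were thus of like rank in height in each list. All but 2 regions lay on assembled chromosomes, and chromosome 11 held 168 (9.93%) of the broad regions and 831 of the 9463 regions with a peak of every line.

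H3K4me3 width, the number of bases of a region under peaks of a line, was similar between lines for the set as a whole and very different in single regions. The median width was 3058 bp in 961C, 2939 bp in SCL-LMO1, 2795 bp in 748T and 3166 bp in 106A, within merged regions of median length 3695 bp. The range was 97 to 52598 bp for 961C, 101 to 13160 bp for SCL-LMO1, 262 to 12952 bp for 748T and 119 to 15258 bp for 106A. Both the lowest and the highest width were thus those of 961C. The widest line was a median of 1.45 times the narrowest (upper quartile 1.92), and 2 times or more in 390 regions (23.0%). Over all regions with a peak of every line the median was 1.37, and 15.7% reached 2 times or more.

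Regions on either side of the length limit had overlapping widths. The 3 regions just inside it, chr1:84834510-84837509, chr18:31947801-31950800 and chr11:6445887-6448887, were 3000, 3000 and 3001 bp long. The 3 just outside it, chr10:93350824-93353821, chr19:53463681-53466678 and chr5:96637334-96640331, were each 2998 bp long. Widths of single lines ran from 2098 to 2970 bp in the former and from 1643 to 2998 bp in the latter.

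The AML line was most often the one that stood apart. A line was called widest when its width was at least 1.5 times that of the next widest line. By this rule 961C was widest in 133 of 1692 regions (7.86%, 95% Clopper-Pearson interval 6.62 to 9.25), against 3.33% of all regions with a peak of every line. Line 106A was widest in 61 (3.61%, background 1.68%), SCL-LMO1 in 16 (0.946%, background 0.845%) and 748T in 6 (0.355%, background 0.465%). Together 216 regions (12.8%, background 6.32%) had a widest line. Line 961C made up 61.6% of them, against 52.7% over all regions with a peak of every line. The broad regions were chosen by their H3K4me3 length and the background regions were not, so nothing is read from the higher share of the broad set.

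Line 961C was also the one most often narrowest by 1.5-fold or more, in 169 regions (9.99%, 8.60 to 11.5, background 5.88%). By any margin 748T was narrowest in 580 regions and 961C in 526, against 3463 and 2327 of all 9463 regions with a peak of every line. At the 1.5-fold limit the counts were 26 for 106A (background 1.93%), 21 for 748T (background 1.67%) and 18 for SCL-LMO1 (background 1.10%). When only the taller 50% of each H3K4me3 list entered, 961C was narrowest in 102. Widths in pairs of lines differed by 1.5-fold or more in 10.2% of regions between 748T and SCL-LMO1, in 12.9% between 106A and SCL-LMO1 and in 16.1% between 748T and 106A. Between 961C and another line this share was 28.2% to 31.9%. Of all bases marked in either line of a pair, 77.2% to 80.8% were marked in both for the pre-T lines, and 65.0% to 66.3% for pairs with 961C. The 2 fusion-bearing pre-T lines thus differed from each other in more regions than either did from the control.

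Few regions separated the pre-T lines with the fusion from the pre-T control. Both 748T and 106A were at least 1.5 times as wide as SCL-LMO1 in 42 regions (2.48%, 1.79 to 3.34, against 1.82% of all regions of every line). The reverse, SCL-LMO1 at least 1.5 times as wide as both, was found in 29 (1.71%, 1.15 to 2.45, against 1.80%). The intervals overlapped.

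NP23 peaks of 961C lay in 178 of the 1692 broad regions (10.5%, 9.10 to 12.1). The share was 2.45% over all regions with a peak of every line, 0.695% in those under 3000 bp and 3.46% over all merged regions. It was 5.61% in the 428 regions of 3000 bp or more that lacked a line. The 178 regions took in 438 of the 1629 NP23 peaks (26.9%) and 0.494 of 0.808 Mb of NP23 (61.1%). The broad regions as a whole made up 21.4% of the bases of all merged regions. Of the 304 NP23 peaks of 500 bp or more, 225 (74.0%) lay in them. With only these long peaks counted, 7.03% of the broad regions held NP23. NP23 peaks in the broad regions had a median width of 517 bp, against 153 bp elsewhere, at the same median maximum height of 13 reads. A mean second-track height over 1 read was listed for 11 of the 438, and for 197 of the 1191 other NP23 peaks. The files do not explain that track.

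**Figure D1:**
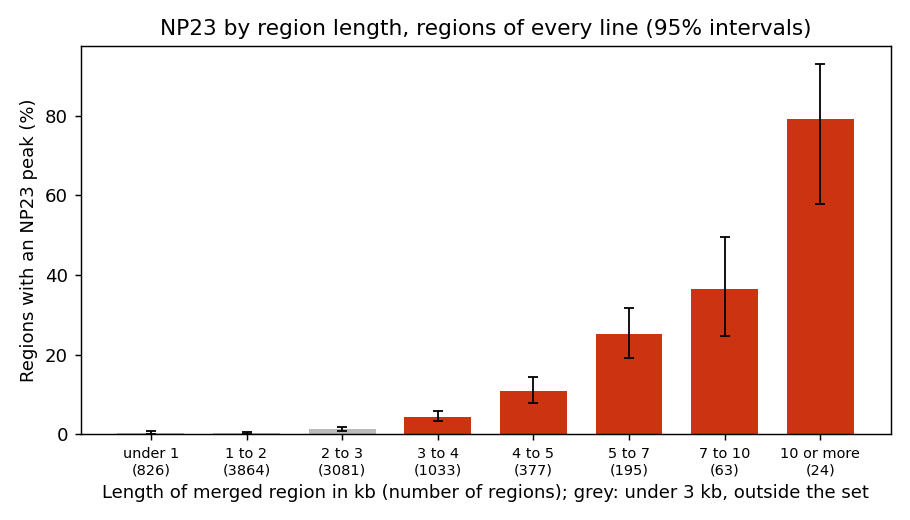
Percent of regions with an NP23 peak (vertical axis) by length of the merged region in kb (horizontal axis, number of regions in brackets) for regions with a peak of every line. Bars are shares (grey: under 3 kb, outside the set) and lines are 95% Clopper-Pearson intervals; the shares are 4.45% in the shortest class of the set and 79.2% in the longest.

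NP23 was found more often the longer the region. The share was 4.45% (3.28 to 5.90) of 1033 regions of 3 to 4 kb, 10.9% of 377 of 4 to 5 kb and 25.1% of 195 of 5 to 7 kb. It was 36.5% of 63 regions of 7 to 10 kb and 79.2% (57.8 to 92.9) of 24 of 10 kb or more. NP23 covered 0.997% of the bases of the shortest of these classes, then 2.98%, 8.90% and 17.8%, and 63.5% of the bases of the longest class, or 57.5% without the longest region.

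Regions wide in 961C held NP23 more often than regions wide in any other line. Of 133 regions in which 961C was 5000 bp or wider, 81 (60.9%, 52.1 to 69.2) held NP23. For the same limit in the other lines the share was 26 of 90 (28.9%) in 748T, 35 of 146 (24.0%) in 106A and 26 of 103 (25.2%) in SCL-LMO1. A limit of 4000 bp on both 961C and the median of the other 3 lines split the set in 4. NP23 lay in 43 of 132 regions (32.6%) where both were wide, and in 74 of 176 (42.0%) where 961C alone was. It lay in 5 of 114 (4.39%, 1.44 to 9.94) where the other lines were wide and 961C was not, and in 56 of 1270 (4.41%) where neither was. Width in the other lines without width in 961C thus went with a share of NP23 like that of the narrow regions. NP23 was mapped in 961C only, and 0.0952% of its bases in these regions lay outside 961C H3K4me3. A wide stretch in 961C therefore offers more bases for an overlap of 1 bp. The shares were not corrected for this and are a description only.

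**Figure D2:**
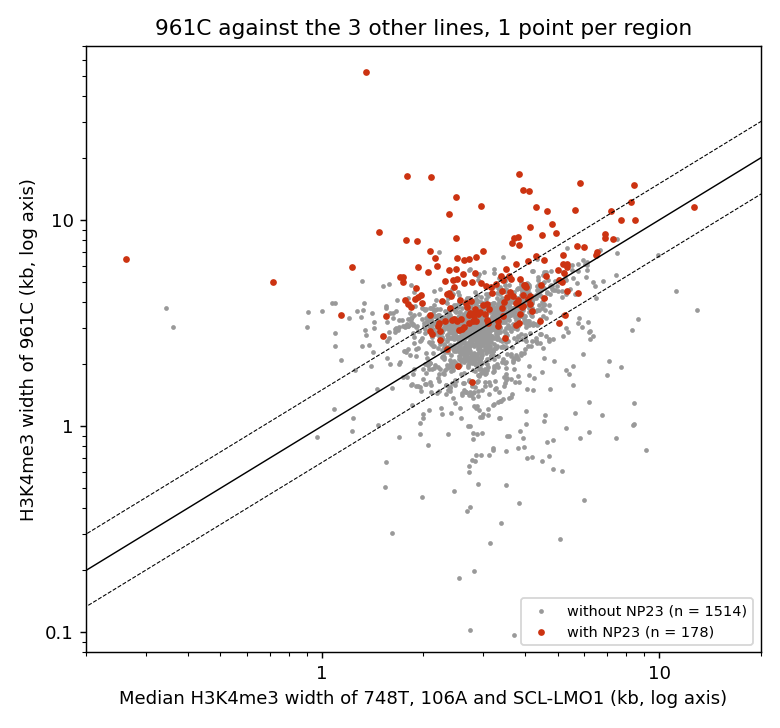
H3K4me3 width of 961C (vertical log axis, kb) against the median width of 748T, 106A and SCL-LMO1 (horizontal log axis, kb), 1 point per broad region; the solid line marks equal widths and the dashed lines 1.5-fold differences. Most of the 178 regions with NP23 (red) lie above the solid line, and none lies below a ratio of 0.5.

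In regions with NP23 the AML line was most often the widest, by any margin in 141 of 178. Over all 1692 broad regions it was so in 661 (39.1%, background 38.2%), and 106A in 634 (37.5%, background 30.9%). Where NP23 was present, 961C was widest by 1.5-fold in 67 of 178 regions (37.6%, 30.5 to 45.2), and none of the other lines was in any (upper bound 2.05%). Where it was absent, 961C was widest in 66 of 1514 (4.36%), 106A in 61, SCL-LMO1 in 16 and 748T in 6. Groups by widest or narrowest line rest on the widths that chose the regions, and some regions reached 3000 bp through 961C alone. The shares of NP23 that follow are thus a description. By widest line, NP23 lay in 67 of the 133 regions widest in 961C (50.4%, 41.6 to 59.2) and in 0 of the 61 widest in 106A (upper bound 5.87%). It lay in 0 of 16 in SCL-LMO1 (upper bound 20.6%) and in 0 of 6 in 748T (upper bound 45.9%). These last 2 intervals include the 10.5% of all broad regions. Of the 169 regions in which 961C was narrowest by 1.5-fold, 1 held NP23 (0.592%, 0.0150 to 3.25). Where another line was narrowest, NP23 lay in 4 of 18 regions for SCL-LMO1 (22.2%, 6.41 to 47.6) and 4 of 26 for 106A (15.4%, 4.36 to 34.9). For 748T it lay in 3 of 21 (14.3%, 3.05 to 36.3). Each of these intervals includes the 10.5% of all broad regions. The share grew with the excess of 961C: 29 of 78 regions (37.2%) where 961C was 1.5 to 2 times the next line, 26 of 40 (65.0%) at 2 to 3 times and 12 of 15 (51.9 to 95.7%) at 3 times or more. With the widest single peak of a line in place of all its bases, the 50.4% became 36.4%.

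**Figure D3:**
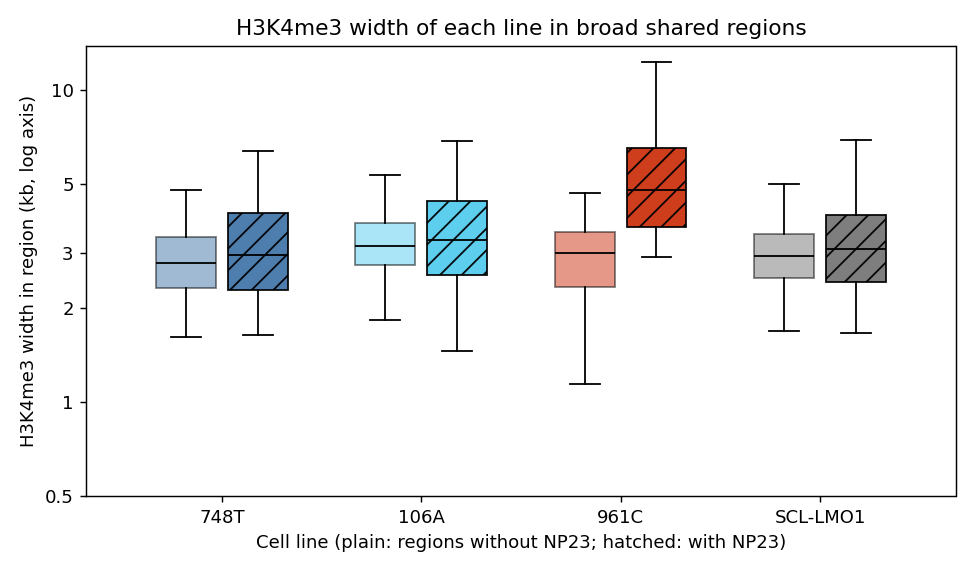
H3K4me3 width in kb (vertical log axis) of each line in the broad regions without NP23 (plain boxes, 1514 regions) and with NP23 (hatched boxes, 178 regions). Boxes span the quartiles with the median as a line, and whiskers reach the percentiles 5 and 95; the median of 961C is 2995 bp without and 4785 bp with NP23, and that of SCL-LMO1 2932 and 3085.5 bp.

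The median 961C width was 4785 bp in regions with NP23 and 2995 bp in those without. With and without NP23 the medians were 2963 and 2786.5 bp in 748T, 3302.5 and 3154.5 bp in 106A, and 3085.5 and 2932 bp in SCL-LMO1. Relative to the median of the other 3 lines in the same region, 961C had a median ratio of 1.40 (quartiles 1.15 to 2.18) with NP23 and 1.01 (0.798 to 1.20) without. The ratio taken in the same way for each other line was 0.914, 1.03 and 0.933 with NP23 in 748T, 106A and SCL-LMO1, and 0.939, 1.08 and 0.999 without. These widths are those that chose the regions, and a region narrow in the other lines had to reach 3000 bp by other peaks, so the ratio by width of the other lines is a description only. Where their median was under 2000 bp, the ratio of 961C was 3.03 with NP23 (23 regions) and 1.70 without (119). From 2000 to 3000 bp it was 1.53 (62) and 1.05 (733), and at 3000 bp or more it was 1.19 (93) and 0.925 (662). Maximum heights differed in the same sense: the tallest 961C peak of a region had a median percentile of 89.0 with NP23 and 79.1 without, whereas in the other lines these were 81.7 to 82.4 and 76.8 to 78.2.

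The largest members carried the most NP23. The longest lay at chr11:96132114-96184711 (52598 bp), where H3K4me3 of 961C spanned the whole region in 1 peak. It covered 3902 bp in 748T, 1354 bp in 106A and 1101 bp in SCL-LMO1. NP23 covered 51075 bp of it, and 92.3% of those bases lay where 961C alone was marked. H3K27me3 of the other lines lay there too, with 1418 bp in 748T, 3098 bp in 106A and 787 bp in SCL-LMO1, against 0 bp in 961C. At chr11:79879518-79895921, H3K4me3 covered 16404 bp in 961C and 1792, 1836 and 1668 bp in 748T, 106A and SCL-LMO1. All 3 lines were marked in the same stretch of less than 2 kb, from which the 961C domain ran 13649 bp to the lower coordinate side and 870 bp to the other, and NP23 covered 13102 bp.

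**Figure D4:**
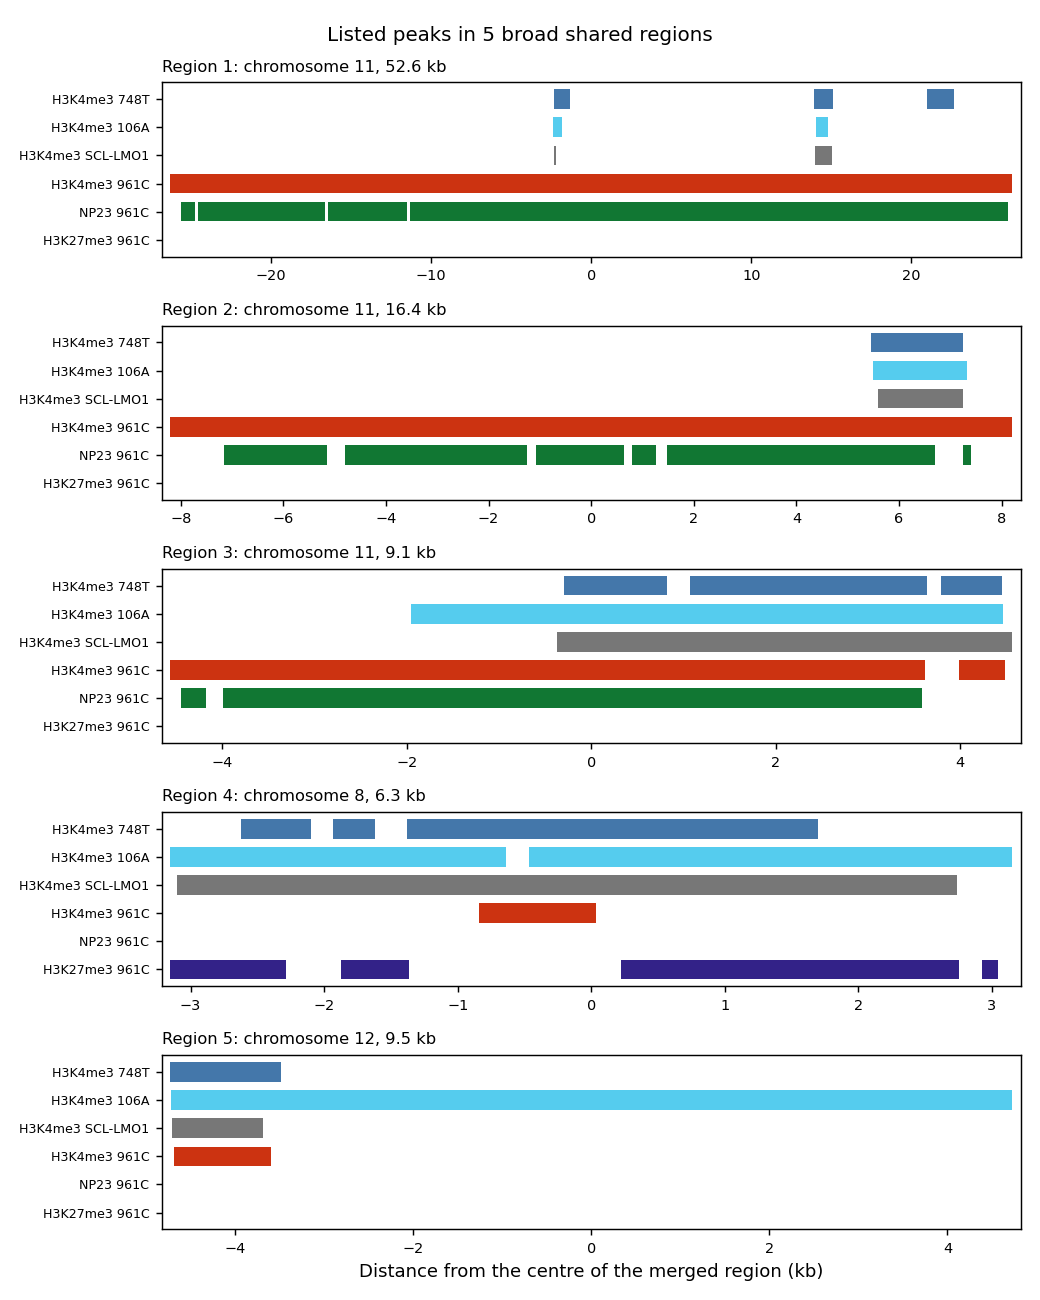
Listed peaks in 5 broad regions, drawn to scale within each panel as distance from the region's centre in kb; rows are H3K4me3 of each line, then NP23 and H3K27me3 of 961C. Regions 1 and 2 (chromosome 11, starting at 96132114 and 79879518) show NP23 over a domain of 961C, region 3 (chromosome 11, 6367603) NP23 over a domain broad in every line, region 4 (chromosome 8, 35867637) H3K27me3 of 961C beside a short 961C peak, and region 5 (chromosome 12, 114394589) a domain that is broad in 106A.

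A like form was seen at chr14:32628722-32645219, with 16219 bp in 961C against 2065 to 2390 bp, and at chr11:22745217-22762009, with 16793 bp against 3615 to 4445 bp. NP23 covered 14050 and 13285 bp of these. At chr3:58217710-58232826, 961C had 15102 bp and the other lines 5612 to 7021 bp, and NP23 covered 12609 bp with a maximum of 82 reads. These 5 regions held the most NP23 bases of the set.

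The other 5 of the 10 longest regions showed more variety. At chr5:115219510-115233542, 961C had 13861 bp and the others 3614 to 4753 bp, with 9348 bp of NP23. At chr11:79332261-79346180, 961C had 13920 bp, SCL-LMO1 5329 bp, 748T 3946 bp and 106A 1155 bp, with 10252 bp of NP23. The region at chr4:109326077-109341036 was broad in every line, with 14801 bp in 961C and 8067 to 8767 bp in the others, and held 10 NP23 peaks over 11930 bp. The region at chr6:134866085-134881830 was also broad in every line, at 12696 bp in 748T, 15258 bp in 106A, 11629 bp in 961C and 11176 bp in SCL-LMO1. Its NP23 peaks covered 7573 bp, none of it in H3K4me3 of 961C alone. The region at chr5:66247222-66260731 went the other way, with 12952 bp in 748T, 12274 bp in 106A, 13160 bp in SCL-LMO1 and 3669 bp in 961C, and held no NP23 peak.

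Of the 10 regions in which 961C exceeded the next line by the largest factor, all held NP23. The first was at chr17:34325797-34332307, where 961C had 6511 bp and the other lines short peaks of 262, 339 and 101 bp, a 19.2-fold excess over the next line. The longest region followed at 13.5-fold, then the regions on chromosome 11 at 79879518 (8.93-fold), chromosome 14 at 32628722 (6.79-fold) and chr5:20448318-20453350 (6.18-fold). The remaining 5 were at 3.76-fold to 4.78-fold. They lay at chr2:37273233-37279128, chr14:32971920-32984900, chr4:109347841-109355735, chromosome 11 at 22745217 and chr17:27993160-28001438. NP23 covered between 21.6% of the 961C H3K4me3 (chromosome 2) and 97.1% (the longest region). Of the regions widest in 961C without NP23, the largest excess was 3.54-fold, at chr9:44110266-44113869, with 3604 bp in 961C and 1000 to 1017 bp in the others; it was chosen after its values were seen.

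The regions widest in another line held no NP23. The largest excess of 106A was 7.63-fold, at chr12:114394589-114404041, with 9450 bp in 106A and 1022 to 1238 bp in the other lines. The next lay at chr12:87027108-87031153 (4.18-fold, with 2 H3K27me3 peaks in 748T) and chr8:36650199-36656553 (3.70-fold). In SCL-LMO1 the largest were at chr4:88782680-88789220, with 6450 bp against 1768 to 1868 bp (3.45-fold), chr14:64158930-64163509 (2.64-fold) and chr16:31660728-31668622 (2.28-fold). In 748T they were at chr2:71362769-71369513, with 6745 bp against 1476 to 2231 bp (3.02-fold), chr10:110942664-110946953 (2.54-fold) and chr9:121206182-121210153 (1.93-fold). Each line thus had domains that were broad in it and narrow elsewhere. NP23 of 961C was listed in none of these 9 regions, too few to set apart from the 10.5% of all broad regions. H3K27me3 of 961C was listed in 2 of the 9, at 31660728 on chromosome 16 (334 bp) and at 71362769 on chromosome 2 (2151 bp).

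Within the regions that held it, NP23 lay almost wholly in H3K4me3 of 961C, which itself covered 1.051 of their 1.106 Mb. Every base of a merged region was under a peak of some line, so NP23 outside H3K4me3 could not appear here. Of the 1629 NP23 peaks, 1179 lay in any merged region. Of 493748 NP23 bases, 470 (0.0952%) lay where other lines were marked and 961C was not. Such stretches made up 54851 bp of the 178 regions, and NP23 covered 0.857% of them, against 46.9% of the 961C H3K4me3. Of the NP23 bases, 42.9% lay in H3K4me3 of all lines, 12.2% in H3K4me3 of 961C and some other lines, and 44.8% in H3K4me3 of 961C alone. The H3K4me3 of 961C in these regions divided as 48.8%, 14.7% and 36.5%. Without the longest region the part of 961C alone took 39.4% of the NP23 bases and 33.6% of the H3K4me3 bases.

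By region, NP23 more often lay in the part that all lines shared. It touched H3K4me3 of all lines in 171 of 178 regions and H3K4me3 of 961C alone in 84. In 76 regions every NP23 base lay in the part of all lines, and in 4 every base lay in the part of 961C alone. Where both parts were 500 bp or longer (117 regions), NP23 covered a median of 57.7% of the part of all lines and 30.6% of the part of 961C alone. Its coverage was higher in the part of all lines in 85 of these and in the part of 961C alone in 30. Summed over the bases of all 178 regions the order was the reverse, with 41.3% of the part of all lines and 57.7% of the part of 961C alone covered (52.0% without the longest region).

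The 67 regions widest in 961C and the 111 others differed in how far NP23 reached. In the 67, NP23 covered a median of 62.3% of the 961C width and at least 50% of it in 44, and it touched both the shared and the 961C part in 55. Summed over these regions it covered 66.0% of the bases marked in all lines and 65.8% of those marked in 961C alone. In the 111, NP23 covered a median of 20.5% of the 961C width, with a median of 744 bp against 3791 bp, and 77.8% of its bases lay in H3K4me3 of all lines. The domain of 961C extended mostly to one side: at least 80% of the bases beyond the reach of all other lines lay on 1 side in 48 of the 67 regions with NP23 (71.6%) and in 52 of the 66 without (78.8%). The median of those bases was 3134 bp with NP23 and 1563.5 bp without.

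NP23 also lay in regions where no line was widest by 1.5-fold, in 111 of 1476 (7.52%, 6.23 to 8.99). Those with the most NP23 bases, chosen after their values were seen, were at chr11:6367603-6376728 (7843 bp of NP23, 90.5% of the 961C width), the region on chromosome 6 at 134866085 (7573 bp) and chr17:34251708-34262908 (6542 bp). In the first, 961C had 8671 bp and 106A 6415 bp, and in the last they had 11027 and 7823 bp. The one region with NP23 in which 961C was narrowest by 1.5-fold, at chr19:8970534-8974121, held a single NP23 peak of 434 bp.

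The share of broad regions with NP23, 10.5% in the whole set, differed between chromosomes, and this was not tested. NP23 lay in 38 of 168 broad regions on chromosome 11 (22.6%, or 37 of 167 without the longest), in 11 of 49 on chromosome 14 (22.4%) and in 21 of 109 on chromosome 5 (19.3%). It lay in 1 of 74 on chromosome 13 (1.35%), 1 of 43 on X (2.33%), 3 of 104 on chromosome 7 (2.88%) and 4 of 129 on chromosome 2 (3.10%). Chromosome 11 carried 165335 of the 493748 bases. Regions with NP23 also lay near each other: 26 of 178 had another such region within 10 kb, and 93 of all 1692 broad regions had another broad region within that distance.

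H3K27me3 was rare in the broad regions and, in 961C, lay in other regions than NP23. Peaks of 961C lay in 43 of 1692 (2.54%, 1.85 to 3.41, against 1.68% of all regions of every line). Those of 748T lay in 10 (0.591%, background 0.486%), those of 106A in 3 (0.177%, background 0.137%) and those of SCL-LMO1 in 1 (0.0591%, background 0.0317%). The 961C list is the longest, with 19469 H3K27me3 peaks against 4875 to 8412. With each list reduced to its tallest 4875 peaks, an alternative added after seeing the data, the share of 961C was 1.00% and that of the others 0.0591% to 0.355%. Of the 43 regions, 0 held NP23, and of the 178 regions with NP23, 0 held H3K27me3 of 961C (upper bound 2.05%). Relative width of 961C parts the 2 as well. Where 961C was at least 2 times the median of the other lines, NP23 lay in 56.7% of regions and H3K27me3 in 0%. Below a ratio of 0.5 these were 0% and 14.8%. The lack of shared regions was thus not told apart from 961C width. In the 1514 regions without NP23 the share was 2.84% (2.06 to 3.81).

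**Figure D5:**
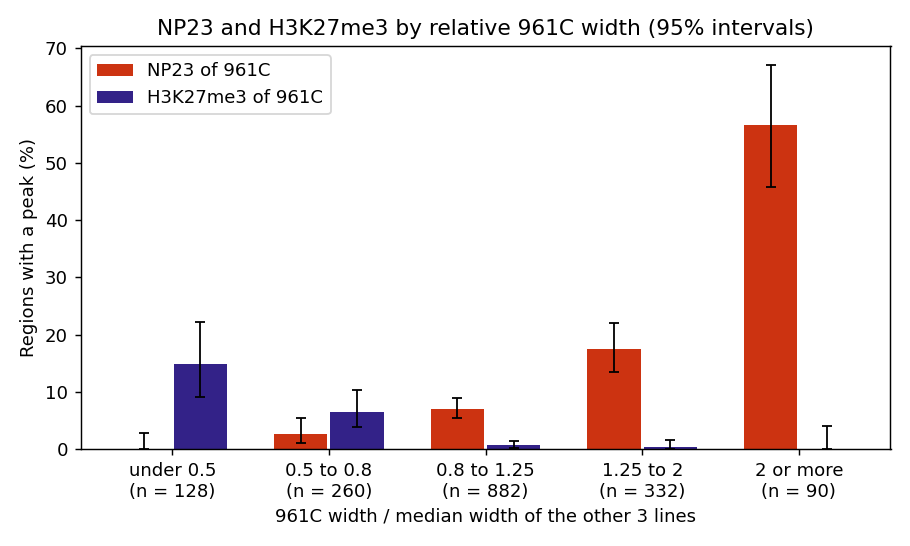
Percent of broad regions (vertical axis) with an NP23 peak (red) and with an H3K27me3 peak of 961C (blue), by the width of 961C divided by the median width of the other 3 lines (horizontal axis, n regions per class). Lines are 95% Clopper-Pearson intervals; NP23 runs from 0% to 56.7% and H3K27me3 from 14.8% to 0% across the classes.

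The 961C H3K27me3 lay where 961C had little H3K4me3. In 37 of the 43 regions 961C was the narrowest line, in 24 by 1.5-fold or more, and the median over these regions of the ratio of its width to that of the other lines was 0.534. Among all regions with a peak of every line, 159 held H3K27me3 of 961C. There 961C was narrowest in 124, in 84 by 1.5-fold or more, with a median ratio of 0.524. The pattern was thus not particular to the broad set. Of the 169 regions in which 961C was narrowest by 1.5-fold, 24 (14.2%, 9.32 to 20.4) held H3K27me3 of 961C, against 19 of the 1523 others (interval 0.753 to 1.94%) and 0 of the 133 widest in 961C. Regions were put in 5 classes by the ratio of 961C to the median of the other lines. H3K27me3 lay in 14.8% of 128 regions below 0.5 and in 6.54% of 260 from 0.5 to 0.8. It lay in 0.680% of 882 regions of about equal width, in 0.301% of the 332 next and in 0% of 90 at 2 or more. NP23 in the same classes lay in 0%, 2.69%, 7.03%, 17.5% and 56.7%. The marks thus ran in opposite order. Of the H3K27me3 bases, 24.3% overlapped H3K4me3 of 961C itself. In a culture, both marks on 1 chromosome and each mark in different cells cannot be told apart.

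Examples were chosen after their values were seen. At chr8:35867637-35873939, H3K4me3 covered 3918 bp in 748T, 6134 bp in 106A, 5848 bp in SCL-LMO1 and 873 bp in 961C, and H3K27me3 of 961C covered 4028 bp on both sides of that short peak. At chr11:120094279-120099447, 961C had 607 bp of H3K4me3 and 3752 bp of H3K27me3, and 748T and 106A had 5163 and 5141 bp of H3K4me3. SCL-LMO1 was intermediate there, with 2259 bp. The narrowest 961C width of all, 97 bp, was at chr2:84678537-84683001, where 106A had 4465 bp, SCL-LMO1 3719 bp and 748T 2258 bp, and H3K27me3 of 961C covered 2919 bp. Other regions had next to no 961C H3K4me3 and no H3K27me3 peak: at chr18:39675120-39680363, 961C had 285 bp and the pre-T lines 4932 to 5125 bp.

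The regions differed too in how the lists divided them. SCL-LMO1 had a single peak in 72.0% of broad regions, 961C in 64.7%, 106A in 64.3% and 748T in 62.2%, and the most peaks of a line in 1 region was 6. In 14 regions 961C had under 500 bp, as had 106A in 10, 748T in 4 and SCL-LMO1 in 1. The broad set therefore includes a small number of regions that were marked in every line only by a short peak in one of them.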

How the data were processed

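Peak lists of 9 libraries were used, and the 4 input samples were left out. Build mm9, BWA 0.5.9-r26 and CASAVA 1.9 are named in the submitters' processing notes. What peak caller and thresholds were used, and whether inputs entered, was not given in the sources used here. In the lists as deposited, 1 for every library, a peak has a start, an end and a text of other values: its mean and maximum pileup, and those of an unexplained second track. Starts were read as counting from 0, and positions are printed counting from 1. Heights were compared within a list only. Peaks sharing at least 1 bp were merged, and a mark was counted in a region when at least 1 bp overlapped. Shares carry exact Clopper-Pearson 95% intervals. No p-value was computed, because each line has 1 library per mark and regions are not replicates. The merging and width steps were tested on simulated data. Python 3.11.15, numpy 2.4.6, scipy 1.17.1 and matplotlib 3.10.9 were used.

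The regions and the comparisons were chosen with earlier results of these data known. Regions named in the text were the 10 longest, the 10 with the largest excess of 961C, the 3 with the largest excess of each other line, the 5 with the most NP23 bases and 3 on each side of the length limit. Regions with H3K27me3 of 961C were to be named if 10 or fewer. Others were chosen after their values were seen. Gene positions were at hand only on GRCm38.p6, so they were not joined to mm9 positions, and lists of marker genes were not used. Alternatives changed the merging, the length limit, the measure of width, the fold limit, the peaks entered and the lines required.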

Additional observations from a re-analysis of the deposited data

How the results depend on the processing

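Of 148 values recomputed for 19 results under the alternatives, 82 kept and 66 moved. In every alternative run with all lines, 961C was widest in the most regions, then 106A, SCL-LMO1 and 748T. The number of broad regions was 4773, 659 and 282 at length limits of 2000, 4000 and 5000 bp, and 1437 to 1631 when 1 pre-T line with the fusion was left out. At those 3 limits 961C was widest in 227, 87 and 58 regions, and 106A in 93, 40 and 21. At 2000 and 5000 bp SCL-LMO1 was widest in 27 and 6, and 748T in 13 and 1. NP23 lay in 4.57%, 20.0% and 32.3% of regions at the 3 limits. H3K27me3 of 961C lay in 3.95% at 4000 bp and 4.26% at 5000 bp, where that of SCL-LMO1 lay in 0.355%. With a lower fold limit 961C, 106A, SCL-LMO1 and 748T were widest in 251, 159, 45 and 14 regions, and with a 2-fold rule in 55, 16, 3 and 2. By the widest single peak these were 198 for 961C, 96 for 106A, 44 for SCL-LMO1 and 20 for 748T.

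With peaks within 1000 bp joined, 106A was widest in 92, SCL-LMO1 in 26 and 748T in 15. NP23 then lay in 8.94% of regions, and 47.3% of its bases lay in H3K4me3 of 961C alone. By span, SCL-LMO1 was widest in 10. With 1 pre-T fusion line left out, 961C was widest in 147 to 178 regions, SCL-LMO1 in 30 to 48, and 106A in 81 or 748T in 16. The share of regions with NP23 was then 10.9% to 12.4%, its share in 961C alone 46.6% to 49.0%, and the ratio of 961C to the other lines 1.35 to 1.51 with NP23 and 0.970 to 1.06 without.

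With NP23 peaks of 500 bp or more, NP23 lay in 7.03% of regions, 46.4% of its bases in 961C alone, and the ratio with NP23 was 1.65. With the taller 50% of NP23 peaks the share was 6.38%. With each width divided by the line's median, the ratio without NP23 was 0.972. By width of the other lines, the ratio was 3.03 under 2000 bp and 1.19 at 3000 bp or more with NP23, and 1.70, 1.05 and 0.925 in the 3 classes without. H3K27me3 of 961C lay in 1.71% of regions with the taller 50% of its peaks.

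Some alternatives were chosen after seeing the data. Without the longest region the share of NP23 bases in 961C alone was 39.4%, and without chromosome 11 NP23 lay in 9.19% of regions. With each H3K27me3 list reduced to the length of the shortest, H3K27me3 of 961C lay in 1.00%. With the taller 50% of H3K4me3 peaks 961C was narrowest in 102. NP23 lay in 39.8% of regions widest in 961C with peaks within 1000 bp joined, and in 36.4% by the widest single peak. The alternatives for height, in contrast, were planned. Median percentiles of height were 75.3 for 106A and 78.1 for 961C at 2000 bp, and 79.3 for 106A at 5000 bp. By mean pileup they were 75.8 for 748T, 71.9 for 106A and 75.8 for 961C. The causes of these shifts were not tested. No paired analysis was possible because each line had 1 library per mark and no test was made. Depth is unknown, and a list's absence of a peak can be a matter of depth.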
